A study of Mus musculus with 6 samples.

Results

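Mature miR-451, miR-144 and miR-486 are enriched in red cells, and both strands of miR-126 in platelets and endothelial cells. These 5 mouse miRNAs were followed in sorted monocytes, where they mark RNA of other blood and vessel cells that may be carried along. They were chosen by name from the mouse assays of a TaqMan low-density array. Assays under 4 of the 5 names were found among 750 miRNA assays (mmu-miR-451, mmu-miR-486, mmu-miR-126-3p and mmu-miR-126-5p). For miR-144 the list held no assay with the mouse prefix, and an assay named hsa-miR-144 is given in its place as a description. The samples were monocytes freshly isolated from 3 DBA/1 mice, with no treatment named in the sample labels. Each mouse gave 1 Ly6Chigh sample (classical monocytes) and 1 Ly6Clow sample (non-classical, patrolling monocytes), 6 samples in all. The age and sex of the mice and the sorting gates were not given in the sources used here.

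The genes of miR-144 and miR-451 form a cluster that is switched on during red cell maturation, and miR-451 is among the most abundant miRNAs of the mature red cell. It is unusual in being cut by Argonaute instead of Dicer. The miR-486 gene lies within Ank1, which encodes an ankyrin of the red cell membrane skeleton, and the miRNA is also found in muscle. The miR-126 hairpin lies within Egfl7, a gene of endothelial cells, and its 3p strand restrains inhibitors of vascular growth factor signalling. Megakaryocytes and platelets also carry it. Monocytes circulate with all these cells, and patrolling monocytes crawl along the endothelium.

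The sequences are shown for the pair of miRNAs on which the subset comparison rests, with the seed (bases 2 to 8) in capitals, as listed by RefSeq for GRCm38.p6. The assay names mmu-miR-451 and mmu-miR-126-3p were matched to miR-451a and miR-126a-3p through the older gene names.
mmu-miR-451a: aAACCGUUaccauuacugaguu
mmu-miR-126a-3p: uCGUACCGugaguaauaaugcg
Their seeds differ from each other, and each was shared with 0 other sequences among 1738 mature mouse miRNAs of the table. The mature miR-451a lies at chr11:78073186-78073207 on the plus strand, and its hairpin follows that of Mir144 after 99 bases. The mature miR-126a-3p lies at chr2:26591402-26591423 on the plus strand, inside the Egfl7 gene.

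Each TaqMan reaction was read as its Ct, the number of PCR cycles needed to reach a fixed fluorescence, and a signal 1 cycle later stands for 1 log2 unit less template. Reactions without signal were listed at 40. The 4 mouse assays were on the card listed first, called card A here, with 375 miRNA assays, of which 111 to 151 gave a signal per sample. On this card the Ly6Chigh sample of mouse 1 stood apart. Its Ct values correlated with those of the other 5 samples at a Spearman coefficient of 0.10 to 0.15 across the tested assays of the card, and the others with each other at 0.73 to 0.94 (a description, since assays are not replicates). Of 93 assays with a signal in all other 5 samples, 51 were undetected in it (54.8%), and 45 of its 111 signals were seen in no other sample, against 2 to 9 for the others. miR-223, abundant in myeloid cells, and miR-142-3p and miR-142-5p, abundant in blood cells at large, were undetected in it (0 of 3), whereas 3 of 3 gave a signal in each of the other 5 samples. Whether the sample and the wells of this card were assigned as labelled could not be settled from the tables, so an undetected reaction in it may not describe the cells named by the label. Results are therefore given with and without this sample.

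Of the red cell miRNAs, miR-451 was detected at a late cycle and miR-486 was not detected. In the Ly6Chigh samples of mice 1, 2 and 3, miR-451 was undetected, at a Ct of 32.97 and at 31.96. In the Ly6Clow samples, its Ct was 30.94, 30.96 and 32.98. The 5 signals thus lay within 2.03 cycles of each other, and the ranges of the subsets overlapped. The mmu-miR-486 assay was undetected in all 6 samples, as were 142 of the 375 miRNA assays of card A (37.9%). The hsa-miR-144 assay, on the second card, was likewise undetected in all 6, as were 192 of the 375 assays of that card (51.2%). Of the 3 red cell assays, 1 therefore gave a signal. An undetected reaction is a limit of this measurement and does not show that the miRNA was absent, and how well the human miR-144 assay reads the mouse sequence was not tested.

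For miR-126, the 3p strand gave a signal in 5 samples and the 5p strand in 2. The Ct of miR-126-3p was 30.98 and 28.99 in the Ly6Chigh samples of mice 2 and 3, and it was undetected in that of mouse 1. In the Ly6Clow samples it was 28.97, 28.99 and 31.97. The 5 signals spanned 3.00 cycles, and the Ly6Clow sample of mouse 3 had the latest. The partner strand miR-126-5p was detected only in mouse 2, at a Ct of 35.02 in its Ly6Chigh and 32.99 in its Ly6Clow sample. In the other 4 samples it was listed at 40.

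**Figure D1:**
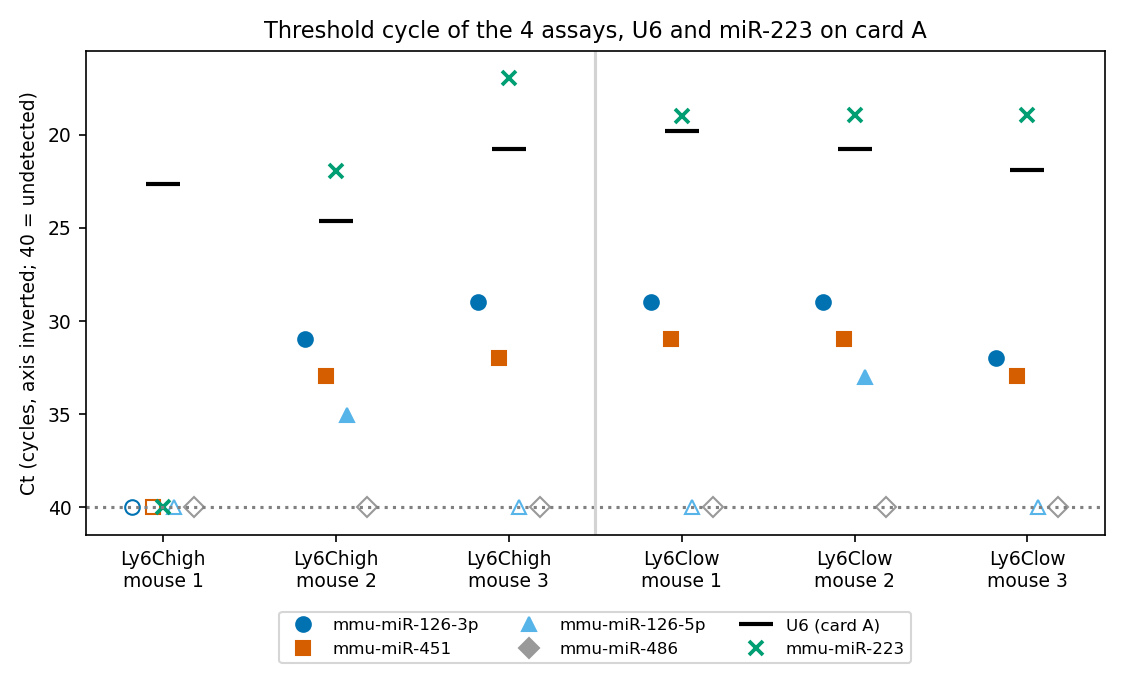
Threshold cycle (Ct, inverted axis, so that higher points mean more template) of the 4 assays in each of the 6 samples, with U6 and miR-223 of the same card. Open symbols, and the miR-223 cross of the Ly6Chigh sample of mouse 1, at 40 are undetected reactions. miR-126-3p and miR-451 lie between 28.97 and 32.98 in 5 samples, miR-126-5p appears in mouse 2 only and miR-486 in no sample.

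In both samples with a signal for both strands, miR-126-5p followed miR-126-3p by nearly the same number of cycles, 4.04 in the Ly6Chigh and 4.00 in the Ly6Clow sample of mouse 2. This gap holds the efficiencies of both assays, so it does not give the ratio of the strands. The 3p strand was as early in the Ly6Chigh sample of mouse 3 (28.99) and the Ly6Clow sample of mouse 1 (28.97) as in the Ly6Clow sample of mouse 2 (28.99), yet the 5p strand was undetected in the former pair. Signals this late were often missing elsewhere. The Ly6Clow sample of mouse 2, with the most signals on card A (151), had 19 assays with a Ct between 32 and 34, miR-126-5p included. Of these, 15 (78.9%) were undetected in the deviating Ly6Chigh sample of mouse 1. In each of the remaining samples, 9 to 13 (47.4% to 68.4%) were undetected. These shares depend in part on taking the sample with the most signals as the reference, and no other reference was used. Both mouse 2 samples also shared signals that the others lacked. On card A, 28 of 375 assays (7.47%) gave a signal in exactly 2 samples, and for 12 of these, miR-126-5p included, they were the Ly6Chigh and Ly6Clow samples of mouse 2, against 0 to 6 for the other 14 pairs of samples. On card A the control RNAs snoRNA202, snoRNA135, U87 and Y1 were each earlier in both mouse 2 samples than in the other 4. For snoRNA202 the Ct was 22.97 and 18.99 in mouse 2 (Ly6Chigh, then Ly6Clow) and between 30.96 and 40 elsewhere. The mouse 2 values were 25.96 and 21.98 for snoRNA135, 28.97 and 24.99 for U87, and 29.95 and 27.99 for Y1. Elsewhere these 3 lay between 35.95 and 40. On the other card snoRNA135 was at 23.96 or earlier in mouse 2 and between 32.36 and 40 elsewhere. There snoRNA202 and U87 gave a signal only in the Ly6Clow sample of mouse 2 (33.98 and 31.99), and Y1 was undetected in its Ly6Chigh sample. The part of these controls in the miR-126-5p result was not tested.

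Within a sample, miR-451 and miR-126-5p lay in the later part of the card's signals, and miR-126-3p mostly just past the middle. In the 5 samples with a signal, 54.8% to 78.0% of the detected card A assays had a lower Ct than miR-126-3p, and 67.2% to 83.1% had a lower Ct than miR-451. Outside the Ly6Clow sample of mouse 3, the share for miR-126-3p was 54.8% to 60.3%. The Ly6Clow sample of mouse 3 gave the highest share for both. For miR-126-5p the share was 91.1% in the Ly6Chigh and 87.4% in the Ly6Clow sample of mouse 2. These places do not depend on U6 but hold the efficiency of each assay.

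**Figure D2:**
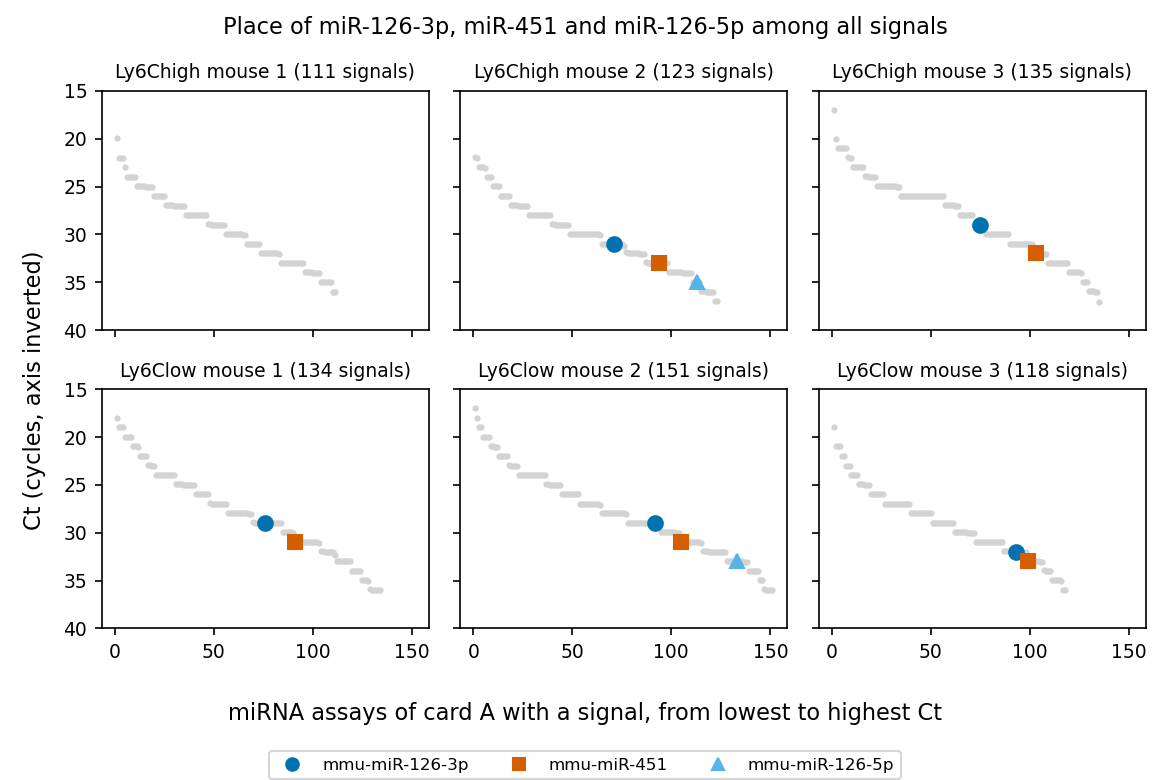
Ct (inverted axis) of each miRNA assay of card A with a signal, sorted from lowest to highest within each sample (grey points), with miR-126-3p, miR-451 and miR-126-5p marked. In 5 samples miR-451 sits in the later part of the curve and miR-126-3p mostly just past its middle. In mouse 2 alone, miR-126-5p appears, late in the curve. None is present in the Ly6Chigh sample of mouse 1 with its 111 signals.

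The distance to abundant blood cell miRNAs was read in the same reactions. In the 5 samples in which both were detected, miR-451 followed miR-223, a miRNA of granulocytes and monocytes, by 11.02, 15.001, 11.97, 11.99 and 14.03 cycles (Ly6Chigh of mice 2 and 3, then Ly6Clow of mice 1, 2 and 3). Against miR-142-3p, which blood cell lineages share, the distance was 9.003 cycles in the Ly6Chigh sample of mouse 2 and between 10.97 and 11.00 in the other 4. Thus miR-451 kept nearly the same listed distance to miR-142-3p in 4 of 5 samples. On this card 89.6% to 96.4% of signals per sample lay within 0.05 of a whole Ct number. Agreement of distances closer than 1 cycle is therefore not resolved. For miR-126-3p the distance to miR-142-3p was 7.01 and 8.01 cycles in the Ly6Chigh samples of mice 2 and 3, and 9.002, 9.02 and 9.99 cycles in the Ly6Clow samples of mice 1, 2 and 3. Both Ly6Chigh distances were smaller than the 3 Ly6Clow distances, as for 33 of the 92 other card A assays with a signal in these 5 samples, miR-126-3p included (35.9%). Against miR-223, in contrast, the subsets overlapped, with distances of miR-126-3p of 9.02 and 12.03 cycles in the Ly6Chigh samples of mice 2 and 3, and 9.998, 10.02 and 13.02 in the Ly6Clow samples of mice 1, 2 and 3. In these 5 samples miR-451 also followed miR-126-3p, by 1.99, 2.98, 1.97, 1.98 and 1.01 cycles in the order above, so that the distance differed most between the subsets of mouse 3. These distances were chosen after the values were seen and were not tested.

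For miR-451 and miR-126-3p, the difference between the monocyte subsets with all 6 samples was smaller than the SD of the Ly6Chigh samples. It was larger than the SD of the Ly6Clow samples. The Ly6Chigh SD holds the undetected reaction of mouse 1. Expression was taken relative to the small nuclear RNA U6 of the same card (the negative of ΔCt, a log2 scale), and limma was fitted to 201 miRNA assays, those that 3 or more samples read at a Ct below 35. Neither that fit nor the exact permutation tests below paired the samples by mouse. In that fit, 0 of 201 assays (0%) passed an adjusted p of 0.05, and 2 (0.995%), both lower in Ly6Chigh monocytes, had an unadjusted p under 0.05. For miR-486 and miR-126-5p no test was made, because they did not pass the filter. In bulk samples, fewer cells of a type and less RNA per cell cannot be told apart.

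Relative to U6, miR-451 was at −8.31 and −11.19 in the Ly6Chigh samples of mice 2 and 3, and at −11.14, −10.20 and −11.06 in the Ly6Clow samples of mice 1, 2 and 3. The Ly6Chigh sample of mouse 1 entered at −17.34, the value of an undetected reaction. The subsets overlapped, whereas over all 201 assays 6 (2.99%) were higher and 5 (2.49%) lower in Ly6Chigh monocytes without overlap. The means were −12.28 ± 4.61 (SD, n = 3) and −10.80 ± 0.52 (SD, n = 3), and Ly6Chigh minus Ly6Clow came to −1.48 on the log2 scale (SE 2.57, adjusted p = 0.985 in limma, 2-sided exact permutation p = 0.7). Without the undetected sample, it changed sign to 1.05 (SE 1.21, adjusted p = 0.997 in limma). Within mice 2 and 3 the differences were 1.89 and −0.13.

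For miR-126-3p, the Ly6Chigh samples of mice 2 and 3 were at −6.32 and −8.21, and the Ly6Clow samples of mice 1, 2 and 3 at −9.17, −8.23 and −10.05. The Ly6Chigh sample of mouse 1 again entered at −17.34. With it, the means were −10.62 ± 5.89 (SD, n = 3) and −9.15 ± 0.91 (SD, n = 3), so that Ly6Chigh minus Ly6Clow was −1.48 (SE 3.12, adjusted p = 0.985 in limma, 2-sided exact permutation p = 1.0) and the subsets overlapped. Without it, the value was 1.88 (SE 1.11, adjusted p = 0.965 in limma), and both Ly6Chigh values lay above the Ly6Clow values, the closest by 0.014. That gap is in effect a tie, far below the whole-cycle steps of most Ct values. The miR-126-3p Ct was 28.986 in the Ly6Chigh sample of mouse 3 and 28.988 in the Ly6Clow sample of mouse 2. U6 was at 20.7735 and 20.7612 there, which gave most of the gap. The 2-sided exact permutation p for the 5 samples without the Ly6Chigh sample of mouse 1 was 0.2, the smallest that 2 samples against 3 allow. Such a separation was common, as 29 of the 93 card A assays with a signal in these 5 samples (31.2%) were higher without overlap and 4 (4.3%) lower.

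Within mice 2 and 3, miR-126-3p was higher in the Ly6Chigh sample by 1.90 and 1.84 relative to U6, as were 38 of the 93 assays (40.9%) in both mice, with 20 (21.5%) lower in both. A fit of mice 2 and 3 with the mouse as a block gave 1.87 (SE 0.219, adjusted p = 0.443 in limma). This small SE rests on how closely mice 2 and 3 agree, which is finer than the whole-cycle steps of most Ct values. In that fit miR-126-3p had an unadjusted limma p of 0.023, and 14 of 201 assays (6.97%) were higher and 2 (0.995%) lower at an unadjusted p under 0.05. The Ct of U6 was later by 3.89 cycles in the Ly6Chigh than in the Ly6Clow sample of mouse 2 and earlier by 1.15 cycles in mouse 3. Over the 5 samples U6 spanned 4.85 cycles, more than miR-451 or miR-126-3p. Without normalisation, the within-mouse differences of miR-126-3p were therefore −1.99 and 2.98, of opposite sign, and those of miR-451 were −2.01 and 1.01.

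Relative to the median Ct of the tested card A assays, which does not use U6, miR-126-3p was higher in Ly6Chigh monocytes by 0.995 in mouse 2 and by 0.965 in mouse 3, about 1 cycle. Of the 93 assays, 14 (15.1%) were higher by more than 0.5 in both mice on this scale. For miR-451 the differences were 0.979 and −1.003, so that the mice disagreed. In mouse 1, this scale placed both undetected Ly6Chigh reactions above the Ly6Clow values, because the median of that card was itself at 40.

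**Figure D3:**
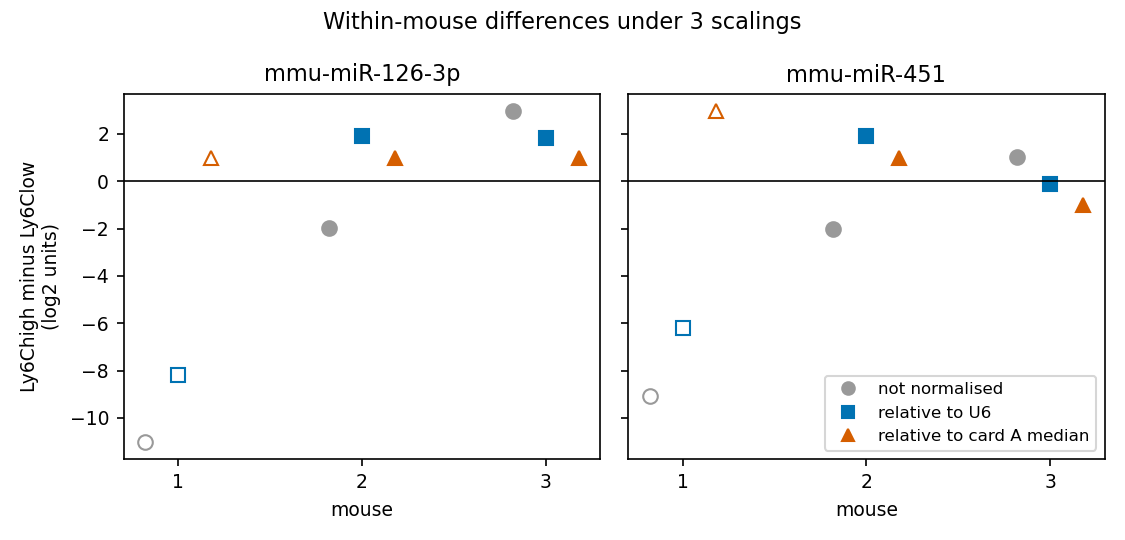
Ly6Chigh minus Ly6Clow difference within each mouse (log2 units) for miR-126-3p and miR-451, without normalisation (circles), relative to U6 (squares) and relative to the median of the tested card A assays (triangles). Open symbols mark mouse 1, where the Ly6Chigh reaction was undetected and the value depends on the listed 40. For miR-126-3p the signs in mice 2 and 3 are both positive relative to U6 or the median (1.90 and 1.84 relative to U6) and opposite without normalisation. For miR-451 the U6-relative differences are 1.89 and −0.13.

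Other miRNAs tied to the same lineages ranged from early signals to undetected. Of 6 listed red cell miRNAs, 2 could be tested, miR-16 and miR-92a, and neither passed the adjusted threshold. Their median log2 difference was −4.31 with all samples and −0.04 without the Ly6Chigh sample of mouse 1. For the 127 tested assays of card A, which holds both, it was −1.14 and 0.89. miR-16, common to many blood cells, had a Ct between 17.96 and 23.00 in the 5 samples other than the Ly6Chigh sample of mouse 1, where it was undetected, and miR-451 followed it by 9.98 to 13.01 cycles. miR-92a, of the miR-17/92 cluster, was detected in 3 samples, at 25.96 and 22.96 in mouse 2 and 28.95 in the Ly6Clow sample of mouse 1. The cluster of miR-183, miR-96 and miR-182, which is also known from sensory cells, had the opposite pattern to miR-451. In the Ly6Chigh sample of mouse 1, miR-96, miR-182 and miR-183 were at 25.97, 27.97 and 31.95, and in the other samples they were undetected except for miR-183 at 34.91 in the Ly6Clow sample of mouse 2. The hypoxia-induced miR-210 was detected in 2 samples, the Ly6Chigh sample of mouse 3 (26.03) and the Ly6Clow sample of mouse 1 (26.94).

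The platelet list held 5 mouse assays (miR-22 had none under the mouse prefix) and all 5 were tested. None passed the adjusted threshold, and their median log2 difference was −1.80, beside −1.14 for the 127 tested assays of card A, which holds all 5, and −0.45 for all 201. Without the Ly6Chigh sample of mouse 1 it was 0.22, beside 0.89 on card A and 0.63 in all, with 4 values above 0 and 1 below. Of the 6 endothelial names, 5 assays were tested and none passed. Their median was −0.48 with all samples and 1.22 without the sample, where 5 of 5 were above 0, as were 100 of the 127 tested assays of card A (78.7%) and 135 of all 201 (67.2%). There miR-27b, of the miR-23b/27b/24 cluster, differed by 2.23 (SE 0.84, adjusted p = 0.965 in limma), and miR-222, a regulator of endothelial growth, by 1.38 (SE 0.98, adjusted p = 0.965 in limma). miR-221 was undetected in both mouse 2 samples, in which miR-126-5p was detected, and had a Ct of 26.97 to 28.99 in the 3 samples with a signal. The card A assay of miR-10b gave a signal in the Ly6Chigh sample of mouse 1 alone, at 21.97, whereas another miR-10b assay, on the other card, was undetected there and gave signals in the Ly6Clow samples of mouse 1 (35.75) and mouse 2 (26.03). The lymphocyte miRNAs miR-150 and miR-342-3p had Ct values of 20.96 to 27.002 in the other 5 samples, and in that sample miR-150 was at 29.98 and miR-342-3p undetected. None of the 3 myeloid and 2 lymphocyte assays passed. Their medians were −5.47 and −4.46 with all samples, beside −1.14 on card A. Without the Ly6Chigh sample of mouse 1 they were 0.22 and −1.11, beside 0.89 on card A. Several listed miRNAs are made by many cell types, monocytes included, so the lists do not single out a source.

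**Figure D4:**
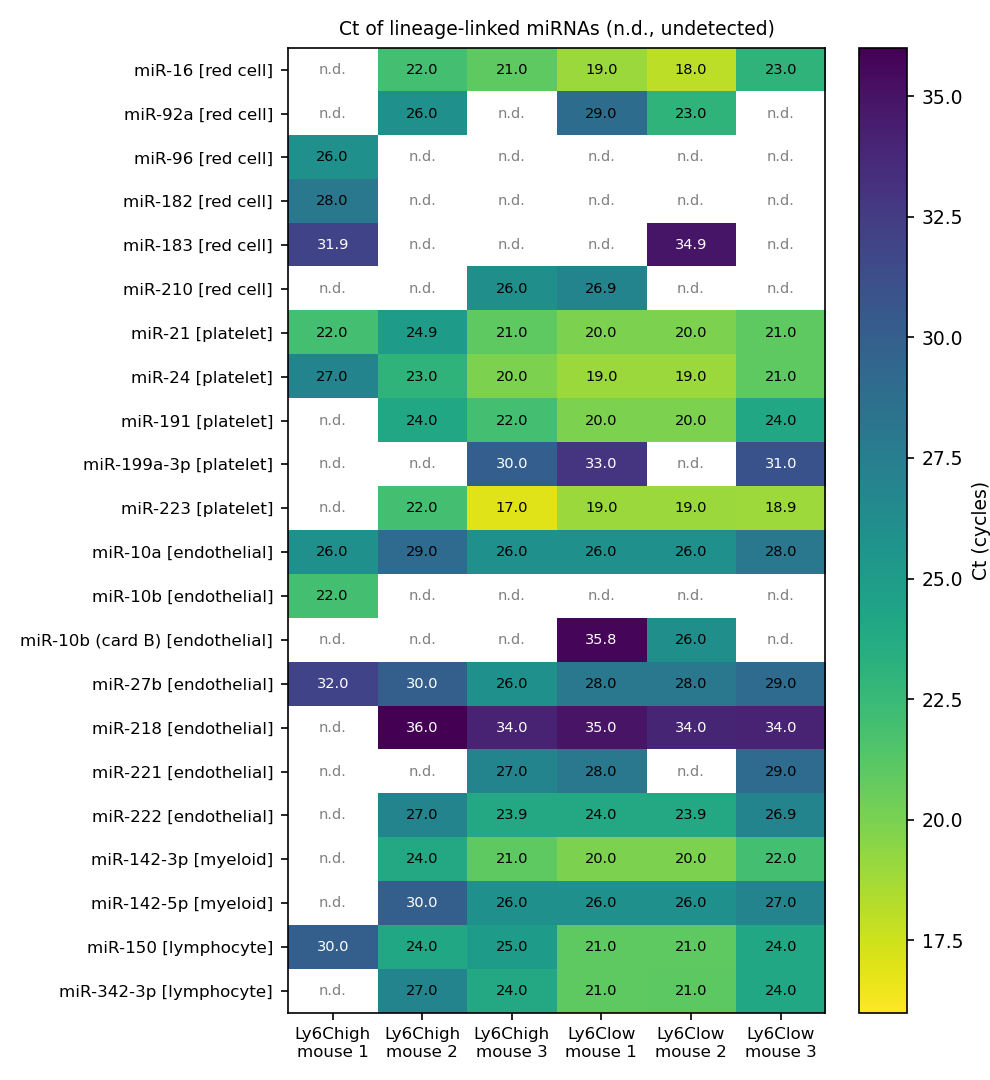
Ct of the lineage-linked miRNAs in the 6 samples, with the list of each in brackets (miR-223 is also on the myeloid list; n.d., undetected; yellow, early cycle; purple, late cycle). The column of the Ly6Chigh sample of mouse 1 differs from the others, with signals for miR-96, miR-182 and the card A assay of miR-10b (its card B assay is undetected there) and miR-16, miR-223 and miR-142-3p undetected.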

How the data were processed

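Monocyte RNA (10 ng per sample) was reverse transcribed and preamplified with Megaplex primers and read on TaqMan cards, per the labels. The authors deposited raw Ct values and, in another table, ΔCt, which is Ct minus that of U6 and so a log2 value with its sign reversed. On checking, 1 value had been subtracted throughout each sample and card, and it matched the mean Ct of U6 except on card B of the Ly6Clow sample of mouse 1 (21.39 against 21.40). A further deposited table holds the authors' own fold ratios between subsets and was not used. The software and threshold behind Ct were not given in the sources used here.

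The 18 control wells were left out. Of 750 assays, the 201 that 3 or more samples read at a Ct below 35 were tested on −ΔCt. The fit used limma 3.58.1 (R 4.3.3) with the subset as its only term, so samples were not paired by mouse, and Benjamini-Hochberg adjusted p-values. It was also run on simulated data with means and spread taken from these data. That simulation had normal noise, no reactions fixed at 40 and larger differences than those of miR-451 and miR-126-3p. It therefore does not show whether differences of their size would be found. Undetected reactions kept the listed 40. Exact permutation tests of the 6 values, also without pairing, were added, for which 0.1 is the smallest possible p. Other steps ran in Python 3.11.15 with scipy 1.17.1, pandas 2.3.3, matplotlib 3.10.9 and numpy 2.4.6. On card A, 89.6% to 96.4% of signals per sample were whole Ct numbers to within 0.05, which, with the number of arrays, limits precision. The labels give both samples of a mouse its number, and their deviations from the subset means correlated at 0.317, 0.615 and 0.722 across the tested assays.

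The members, the lineage lists and the alternatives were chosen with earlier results of these data known. The miRNAs named were the 4 assays and hsa-miR-144, the lists and the controls. The assays most like each member in pattern were to be named for members with a signal in all 6 samples, and there were 0 such members. No assay of an opposite strand other than miR-126-5p was found for them. Alternatives were 4 other normalisations, 3 other filters, a floor of 35, undetected reactions as missing, the mouse as a block, eBayes with trend and robust, the deviating card or mouse 1 left out, and each sample and mouse left out in turn. After the data were seen, 2 fits of mice 2 and 3 were added, with median and with no normalisation.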

Additional observations from a re-analysis of the deposited data

Results flagged for a closer look

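The plant miRNA control, which has no counterpart in mouse cells, was read at 33.97 cycles in the Ly6Clow sample of mouse 2 on card B. It was undetected on card B of the other 5 samples. The control itself enters no comparison, but 74 of the 201 tested assays are on card B. On that card this sample had 148 assays with a Ct under 35, against 31 to 104 in the others. Whether other card B signals of this sample, such as that of miR-10b, are affected was not tested. On card A, which holds miR-451, miR-486 and miR-126, the plant control was undetected in all 6 samples.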

How the results depend on the processing

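The number of assays past the threshold was 0 under all 24 alternatives, while 0 to 29 had an unadjusted p under 0.05, against 2 as reported. The differences of miR-451 and miR-126-3p, −1.48 each, passed the threshold under no alternative but changed sign with the treatment of the Ly6Chigh sample of mouse 1. For miR-451 the difference was 0.98 with median normalisation, 0.187 with a floor of 35, 1.05 with undetected reactions or that card left out as missing and 0.879 when mice 2 and 3 were fitted with a mouse block. For miR-126-3p these settings gave 0.984, 0.191, 1.88 and 1.87. With median normalisation, the card A median of the Ly6Chigh sample of mouse 1 was itself at 40. This placed its undetected reactions above the Ly6Clow values of mouse 1, by 2.96 for miR-451 and 0.99 for miR-126-3p. In mice 2 and 3 with the block, miR-126-3p was at 0.98 with median and 0.496 without normalisation, and miR-451 at −0.012 and −0.495. With each sample or mouse left out in turn, the difference ranged from −3.46 to 1.05 for miR-451 and from −3.63 to 1.88 for miR-126-3p. It was positive when the Ly6Chigh sample of mouse 1 or mouse 1 was left out (0.879 without mouse 1 for miR-451 and 1.87 for miR-126-3p) and negative otherwise. The mouse as a block with all samples left both differences at −1.48 (limma adjusted p = 0.949 and 0.953) and changed no call. Over all alternatives the adjusted p was 0.777 to 1.0 for miR-451 and 0.254 to 1.0 for miR-126-3p. With Ct under 35 required in all 6 samples neither could be tested. With all samples, the sign of both differences rests on a reaction listed at 40, and without mouse 1 that of miR-451 depends on the normalisation as well. The cause of the missing signal was not tested.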
